A study of Mus musculus with 6 samples.

Results

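The genes described here encode 32 enzymes and helper proteins of amino acid synthesis and one-carbon metabolism, the pathways that make and interconvert serine, glycine, methionine, cysteine, proline, asparagine, aspartate, glutamate and glutamine. They were listed by symbol from the serine, folate, methionine, cysteine, proline, asparagine and glutamine pathways, and all 32 were found among the 25865 genes of the table. RNA was sequenced from group 2 innate lymphoid cells (ILC2s, lymphocytes resident in tissue that make cytokines such as IL-5 and IL-13) sorted from the large intestine of C57BL/6 mice. All cells grew for 5 days in medium with IL-33, IL-25, IL-7 and IL-2 (10 ng/mL of each). The 3 Toyocamycin samples then received toyocamycin, an adenosine analogue known to block the RNase of the stress sensor IRE1 and the maturation of ribosomal RNA, for 16 h; the 3 Control samples received vehicle. The sources used here do not state the age of the mice, the dose or the time of vehicle exposure, nor whether the sorted cells of several mice were pooled.

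Serine is made from a glycolytic intermediate in 3 steps and passes a carbon unit to folate when it is turned into glycine. Folate carries that unit, in mitochondria and in the cytosol, to purines, thymidylate and methionine, and methionine feeds S-adenosylmethionine, the methyl donor of the cell. In activated lymphocytes these pathways supply dividing cells with nucleotides and methyl groups, and many of their genes are known targets of ATF4, the transcription factor of the amino acid response.

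Values are normalised read counts, which are reads per gene divided by a size factor of the sample. Each sample held 22.3 M to 36.7 M reads assigned to genes, and 3 reads, taken as the floor of detection, equal 2.66 normalised reads in Control and 3.38 in Toyocamycin on average. All 11 ILC2 markers were present, and their summed level was 397266 to 409207 in Control and 307634 to 335250 in Toyocamycin. Single markers differed in both directions. Gata3 was at 31844 to 33186 in Control and 60472 to 71127 in Toyocamycin, Il13 at 86022 to 92377 and 11473 to 13804, and Il7r at 28539 to 30561 and 9685 to 10111. The summed level of 6 T cell markers was 77.9 to 111 in Control and 99.1 to 108 in Toyocamycin. Within that sum Cd3e was at 34.4 to 36.0 in Control and 3.39 to 9.71 in Toyocamycin. Trac moved the other way, at 27.2 to 57.9 in Control and 79.2 to 84.7 in Toyocamycin. The summed level of 4 B or plasma cell markers was 14.9 to 30.8 and 20.6 to 22.5. Among 5 NK or ILC1 markers, Eomes was at 0 in 5 of 6 samples and the granzyme gene Gzmb, which made up nearly all of the sum, was at 216072 to 225649 in Control and 67396 to 74789 in Toyocamycin. The sum of 5 macrophage or dendritic cell markers was 877 to 1287 and 1063 to 1547, of 5 ILC3 markers 189 to 209 and 170 to 199, of 4 epithelial markers 159 to 217 and 181 to 191, of 3 stromal markers 1058 to 1211 and 616 to 712, and of 3 mast cell markers 5.3 to 13.2 and 0 to 3.4. Within the ILC3 sum, Il22 was at 99.2 to 117 in Control and 29.1 to 49.8 in Toyocamycin, and Il17a at 75.2 to 84.3 and 133 to 157. Pecam1 made up most of the stromal sum, at 979 to 1056 in Control and 519 to 596 in Toyocamycin. Col1a1 (29.8 to 67.0 and 28.8 to 53.4) and Pdgfra (49.1 to 96.5 and 67.8 to 79.2) overlapped between the groups. The part of these other cell types in the results was not tested.

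Most members were lower after toyocamycin. Of the 32, 22 fell, 8 rose and 2, Mthfs and Cbs, did not pass the test (limma on log2 values, adjusted p under 0.05 over all genes). For comparison, 33.1% of the 16223 genes tested fell and 32.8% rose, so 65.9% were called in either direction. That share includes genes of low level. Among the 12913 genes with a mean of at least 10, which include 31 members, 78.8% were called. The median log2 change was −0.52 over the members and −0.03 over all genes tested. A fall of at least 1 on the log2 scale was present in 11 members, against 20.5% of all genes, and a rise of that size in 3, Mat2b, Glul and Got1, against 17.0% of all genes. The 3 Control and 3 Toyocamycin values did not overlap in 31 members, where 69.1% of all genes did not overlap. Samples of whole cell populations cannot tell fewer cells of a type from less RNA per cell. With every sample set to the same total, the median of all genes moved from −0.03 to −0.35 and that of the members to −0.87, with 24 members lower and 5 higher.

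**Figure D1:**
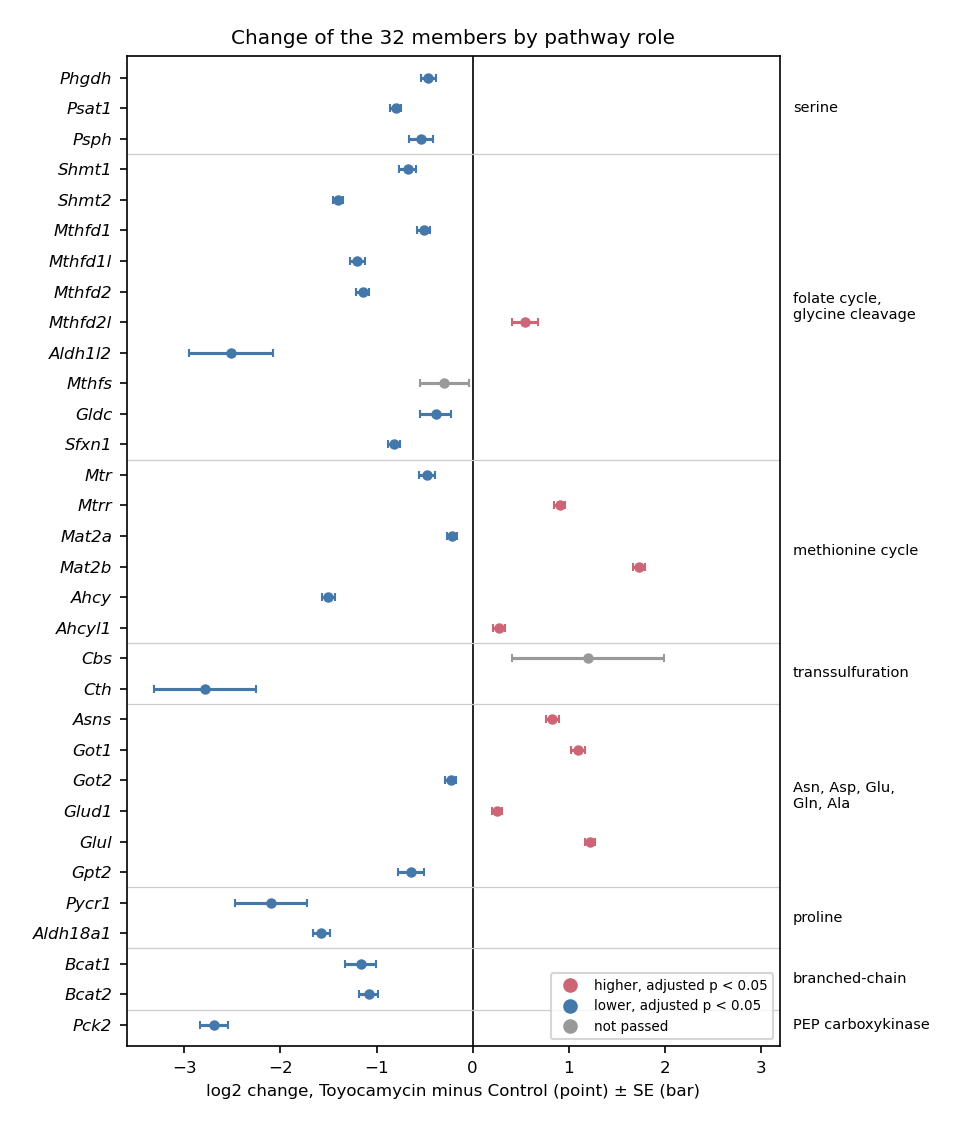
Log2 change of each of the 32 members between Toyocamycin and Control (points; bars show the standard error of the model), ordered by pathway role, with n = 3 per group. The 22 members that fell lie left of 0 in every role, and the 8 that rose are in the folate, methionine and glutamate groups.

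The 3 enzymes of serine synthesis fell together, where 33.1% of all genes tested fell. Phgdh, the dehydrogenase that opens the pathway, was at 905, 907 and 910 in Control and 684, 678 and 619 in Toyocamycin, a 1.37-fold fall (log2 change −0.46, SE 0.079, adjusted p = 2.825e-05). Psat1, the transaminase of the next step, was at 3805, 4034 and 3962 against 2143, 2367 and 2258, a 1.74-fold fall (log2 change −0.80, SE 0.057). All Toyocamycin values of both genes lay below all Control values, where 69.1% of all genes tested did not overlap between the groups. Psph, the phosphatase of the last step, was at 513, 541 and 595 against 317, 468 and 367 (log2 change −0.53, SE 0.12), with Toyocamycin replicate 2 nearest to Control. Without that replicate its log2 change was −0.69. Exons of the abundant chaperonin gene Cct6a (mean 4098 in Control and 4832 in Toyocamycin) cover 10.4% of the exon bases of Psph on the other strand, so that reads of Cct6a may be counted for Psph. The call of Phgdh ended after a correction for GC content and transcript length (log2 change −0.09, adjusted p = 0.3322), and that of Psph with quantile normalization (−0.25, adjusted p = 0.0792). Phgdh is uncertain also because 7 gene models match at least 84.2% of its transcript at 95.3% identity or more. None of these 7 is in the table, and the sources used here do not state how reads that match several places were treated.

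Of 10 genes of the folate cycle and glycine cleavage, 8 fell and 1 rose, beside 33.1% lower and 32.8% higher of all genes tested. Mitochondrial and cytosolic enzymes were among those that fell. Shmt2, the mitochondrial hydroxymethyltransferase that splits serine into glycine and a folate-bound carbon unit, was at 5021, 4897 and 5048 in Control and 1879, 1950 and 1835 in Toyocamycin. This is a 2.64-fold fall with little spread within either group (log2 change −1.40, SE 0.054, adjusted p = 1.926e-15). Its cytosolic partner Shmt1 was at 787, 781 and 762 against 506, 510 and 444, a 1.6-fold fall (log2 change −0.68, SE 0.089). Mthfd2, the mitochondrial dehydrogenase and cyclohydrolase, was at 2176, 2279 and 2188 against 1084, 997 and 929, a 2.21-fold fall (log2 change −1.14, SE 0.069, adjusted p = 3.144e-12). Mthfd1l, which releases formate from mitochondrial folate, was at 1853, 1841 and 1975 against 816, 915 and 739, a 2.29-fold fall (log2 change −1.20, SE 0.078). Both genes stood well apart between the groups. The cytosolic enzyme Mthfd1, which carries all 3 folate activities in 1 protein, fell 1.43-fold, from 2183, 2495 and 2240 to 1564, 1662 and 1628. Its log2 change of −0.51 was −0.86 with equal totals and −0.25 after the GC and length correction.

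Mthfd2l, a relative of Mthfd2 with the same mitochondrial activities, rose where Mthfd2 fell. It was at 201, 206 and 253 in Control and 343, 318 and 302 in Toyocamycin, a 1.46-fold rise (log2 change 0.55, SE 0.14, adjusted p = 0.001177). The rise lost its call with equal totals (0.20, adjusted p = 0.1839) and after the GC and length correction (0.23, adjusted p = 0.1416), and was 1.00 with quantile normalization. Per kilobase of the longest annotated transcript, Mthfd2 stood at 1062 ± 27 (SD, n = 3) normalised reads in Control and 481 ± 37.4 in Toyocamycin, and Mthfd2l at 53.0 ± 6.86 and 77.5 ± 4.98. Mthfd2 thus remained the more abundant transcript of these relatives in both groups.

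Aldh1l2, the mitochondrial dehydrogenase that oxidises formyl-folate, fell from a low level, with 56.2, 35.1 and 51.8 in Control and 7.92, 5.93 and 8.50 in Toyocamycin. These values rest on 161 reads over the Control samples and 20 over the Toyocamycin samples, a ratio of 6.57 per size factor with an exact 95% counting interval of 4.12 to 11.0 (log2 change −2.51, SE 0.44, adjusted p = 3.196e-05). In the annotation 14.1% of its exon bases overlap those of a gene on the other strand, and counts made without regard to strand could not separate them. Sfxn1, the mitochondrial serine carrier, was at 1852, 2116 and 1926 against 1124, 1109 and 1103, a 1.77-fold fall (log2 change −0.82, SE 0.067). Gldc, the decarboxylase of glycine cleavage, was at 246, 279 and 212 against 151, 210 and 206. Its highest Toyocamycin value lay just below its lowest Control value, and its call was marginal (log2 change −0.39, SE 0.16, adjusted p = 0.04454). It ended with no filter on low values (adjusted p = 0.0525), with DESeq2 (−0.37, adjusted p = 0.08376), after the GC and length correction (−0.11), and without Control replicate 1 (−0.38), Control replicate 2 (−0.29) or Toyocamycin replicate 1 (−0.23). With quantile normalization the sign turned (0.12). Mthfs, which returns formyl-folate to the cycle, was at 86.1, 76.4 and 70.2 against 52.8, 68.6 and 68.0 and did not pass (log2 change −0.30, SE 0.26, adjusted p = 0.3247). The median log2 change of the 10 folate and glycine cleavage genes was −0.75.

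**Figure D2:**
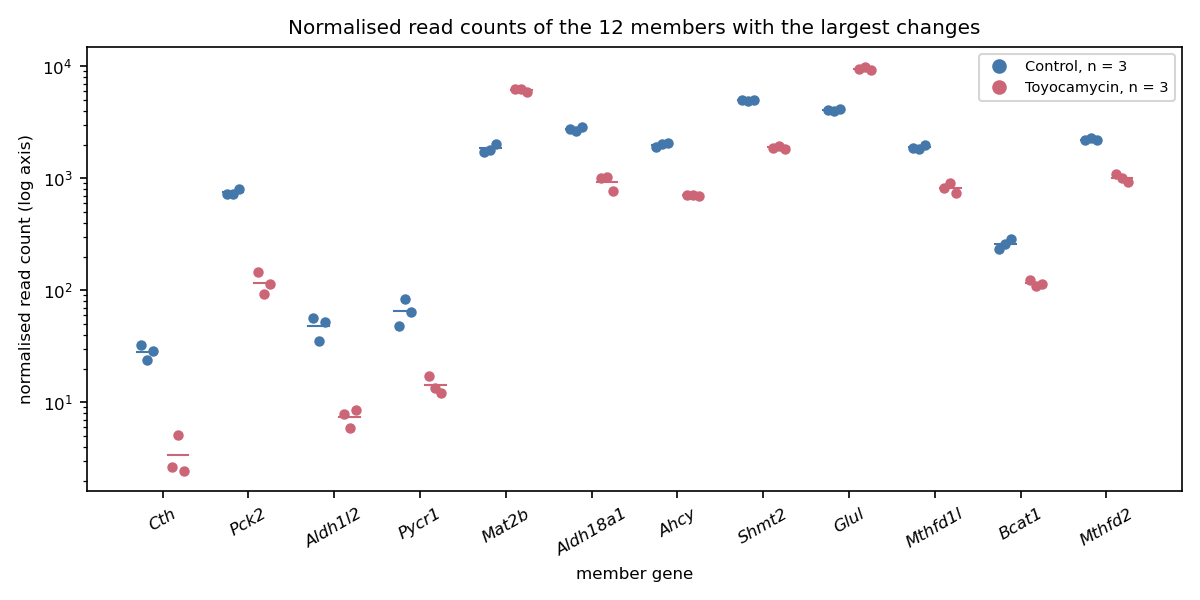
Normalised read counts (log axis) in each sample for the 12 members with the largest log2 changes past the test, with Control and Toyocamycin beside each other; points are samples and lines are group means. Control and Toyocamycin points do not overlap for any of the 12, which were chosen by the size of their change. The same holds for 31 of the 32 members and 69.1% of all genes tested. Only Mat2b and Glul of the 12 are higher in Toyocamycin.

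The methionine cycle divided. Mat2b, the regulatory subunit of methionine adenosyltransferase, had the largest rise of all members, from 1732, 1800 and 2038 to 6305, 6260 and 5902, or 3.32-fold (log2 change 1.73, SE 0.062, adjusted p = 6.134e-16). Mat2a, the catalytic subunit that makes S-adenosylmethionine, was at 4989, 5037 and 4976 against 4077, 4424 and 4461, a 1.16-fold fall (log2 change −0.21, SE 0.053, adjusted p = 0.00133) whose log2 change was −0.56 with equal totals and −0.69 with quantile normalization. The subunits of this enzyme therefore moved in opposite directions. Per kilobase, Mat2b rose from 754 ± 65.2 to 2501 ± 89.7 normalised reads, while Mat2a stood at 1476 ± 9.51 in Control and 1276 ± 62.6 in Toyocamycin. The small fall of Mat2a is uncertain, because a gene model matches 31.4% of its transcript at 95.2% identity. A gene on the other strand also overlaps 11.3% of its exon bases.

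Ahcy, which breaks down S-adenosylhomocysteine, the product of methylation reactions, fell 2.84-fold, from 1899, 2013 and 2067 to 705, 705 and 697 (log2 change −1.50, SE 0.068, adjusted p = 2.791e-14). It has 2 near-identical gene models, 1 of which matches 81.9% of its transcript at 99.7% identity, so its level is uncertain. Ahcyl1, a relative of Ahcy that binds the IP3 receptor, was at 2025, 2185 and 2193 against 2557, 2764 and 2453, a 1.21-fold rise (log2 change 0.28, adjusted p = 0.0004643). Its sign turned with equal totals (−0.07, adjusted p = 0.2025), and quantile normalization also gave −0.07 (adjusted p = 0.1845). Mtr, methionine synthase, fell 1.39-fold, from 1539, 1572 and 1368 to 994, 1197 and 1033 (log2 change −0.48, SE 0.080, or −0.82 with equal totals). Mtrr, the reductase that keeps Mtr active, rose 1.87-fold, from 1637, 1704 and 1726 to 3101, 3283 and 3114 (log2 change 0.91, SE 0.058, adjusted p = 7.961e-12, or 0.56 with equal totals). Mtr and its reductase thus also moved apart. Neither gene overlapped between the groups, where 69.1% of all genes tested did not overlap. Of the 6 genes of the cycle, 3 rose and 3 fell, beside 32.8% higher and 33.1% lower of all genes tested.

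In transsulfuration, which passes the sulfur of homocysteine to cysteine, Cbs was near the floor in both groups and Cth in Toyocamycin. Cth, the lyase that releases cysteine, was at 32.6, 23.7 and 29.0 in Control and 2.64, 5.08 and 2.43 in Toyocamycin. These are 36, 27 and 33 reads against 2, 6 and 2, a ratio of 7.84 per size factor with an exact 95% counting interval of 4.08 to 16.9 (log2 change −2.79, SE 0.53, adjusted p = 9.376e-05). In 2 of the 3 Toyocamycin samples Cth was under the floor of 3 reads. Cbs, which starts the pathway, had 0, 2 and 4 reads in Control and 2, 4 and 7 in Toyocamycin, did not pass (adjusted p = 0.1925), and gives no measurable change at this depth.

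Of 6 genes around glutamate and aspartate, 4 rose and 2 fell, beside 32.8% higher and 33.1% lower of all genes tested; of the 4, Glud1 was called lower with equal totals and with quantile normalization. Glul, glutamine synthetase, rose 2.33-fold, from 4057, 4013 and 4159 to 9409, 9805 and 9325 (log2 change 1.22, SE 0.049, adjusted p = 4.116e-15, or 0.72 with quantile normalization). Got1, the cytosolic aspartate transaminase, was at 1278, 1230 and 1381 against 2546, 3062 and 2726, a 2.14-fold rise (log2 change 1.10, SE 0.071, adjusted p = 1.117e-11). Asns, which makes asparagine from aspartate and glutamine, rose 1.78-fold, from 1211, 1368 and 1301 to 2336, 2254 and 2306 (log2 change 0.83, SE 0.064, adjusted p = 1.945e-10, or 0.48 with equal totals). None of these 3 genes overlapped between the groups, where 69.1% of all genes tested did not overlap. Each of the 3 stayed called higher in all 17 alternatives. For Glul, a gene model matches 40.3% of the transcript at 96.8% identity.

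Got2, the mitochondrial partner of Got1, was at 2952, 2853 and 2876 against 2443, 2451 and 2509, a 1.17-fold fall (log2 change −0.23, adjusted p = 0.0008515). The fall was −0.58 with equal totals, and after the GC and length correction the sign turned (0.11, adjusted p = 0.08036). Its transcript is matched over 64.7% by 1 gene model and over 51.1% by another, at 98.8% and 99.1% identity. Per kilobase, Got2 was above Got1 in Control (1144 ± 20.4 against 630 ± 37.3 normalised reads) and below it in Toyocamycin (975 ± 14.1 against 1350 ± 127). Glud1, the mitochondrial glutamate dehydrogenase and the most abundant member per kilobase in both groups, was at 24922, 25502 and 25889 against 30257, 31690 and 29249 (log2 change 0.26, adjusted p = 0.0001164). Its direction depended on the scaling, since it was called lower with equal totals (log2 change −0.09, adjusted p = 0.006935), and quantile normalization gave −0.20 (adjusted p = 1.117e-05). Gpt2, the mitochondrial alanine transaminase, fell 1.56-fold, from 282, 270 and 287 to 181, 175 and 182 (log2 change −0.64, SE 0.14), and its call ended with quantile normalization (−0.14, adjusted p = 0.3638).

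Both proline genes fell, where 33.1% of all genes tested fell. Aldh18a1, which makes the proline precursor from glutamate, fell 2.96-fold, from 2735, 2662 and 2879 to 1000, 1033 and 767 (log2 change −1.57, SE 0.087, adjusted p = 7.98e-13). Pycr1, the mitochondrial reductase of the last step, was at 48.0, 84.3 and 64.1 against 17.2, 13.6 and 12.1, which is 222 reads against 39 and a ratio of 4.65 per size factor with an exact 95% counting interval of 3.30 to 6.71 (log2 change −2.10, SE 0.38). The branched-chain transaminases also fell, beside the same 33.1% of all genes tested. The cytosolic enzyme Bcat1 was at 236, 261 and 284 against 124, 109 and 113, a 2.25-fold fall (log2 change −1.16, SE 0.16, or −0.63 with quantile normalization), and the mitochondrial enzyme Bcat2 was at 806, 849 and 893 against 454, 395 and 357, a 2.11-fold fall (log2 change −1.08, SE 0.099). For Bcat2, 15.9% of the exon bases overlap an antisense gene. Pck2, the mitochondrial enzyme that makes phosphoenolpyruvate from oxaloacetate, fell 6.39-fold, from 717, 731 and 801 to 147, 92.3 and 113 (log2 change −2.69, SE 0.15, adjusted p = 6.993e-13). Its groups were far apart, with the highest Toyocamycin value at 147 and the lowest Control value at 717.

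Several members were set beside a partner, and the kinds of partner differ. Shmt2/Shmt1, Mthfd1l/Mthfd1, Got2/Got1 and Bcat2/Bcat1 set a mitochondrial enzyme against a cytosolic one. Mthfd2/Mthfd2l and Ahcyl1/Ahcy are relatives, Mat2b/Mat2a are subunits of the same enzyme, and Mthfd1l/Mthfd2 are both mitochondrial folate enzymes. The ratio of such partners within a sample does not depend on a scaling factor shared by all genes of that sample. The log2 ratio of 8 pairs was compared between the groups with an exact permutation test (two-sided), for which 3 against 3 samples cannot give a p below 0.1. The ratio of Shmt2 to Shmt1 was 2.67, 2.65 and 2.73 in Control and 1.89, 1.93 and 2.04 in Toyocamycin, a difference of −0.73. Mthfd1l to Mthfd1 differed by −0.69, Got2 to Got1 by −1.33 and Mthfd2 to Mthfd2l by −1.69, lower in every Toyocamycin sample than in any Control sample. Mat2b to Mat2a differed by 1.94 and Ahcyl1 to Ahcy by 1.78. These 6 pairs did not overlap between the groups and reached the smallest possible value (exact permutation p = 0.1, adjusted over the 8 pairs p = 0.1333), which does not pass 0.05. Bcat2 to Bcat1 differed by 0.08 (exact permutation p = 0.3) and Mthfd1l to Mthfd2 by −0.06 (exact permutation p = 0.7), and both overlapped between the groups. Corrections that act differently on genes of different level or composition do move the ratios. Quantile normalization changed the difference for Shmt2 to Shmt1 to −1.27 and turned those for Bcat2 to Bcat1 (−0.26) and Mthfd1l to Mthfd2 (0.0094). The GC and length correction changed Shmt2 to Shmt1 to −0.40 and Bcat2 to Bcat1 to 0.66, and turned Mthfd1l to Mthfd2 (0.053). The level of a ratio also reflects the lengths of the transcripts, and only its difference between groups is read here. The ratios with Ahcy, Got2 and Mat2a carry the uncertainty from near-identical copies given above.

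**Figure D3:**
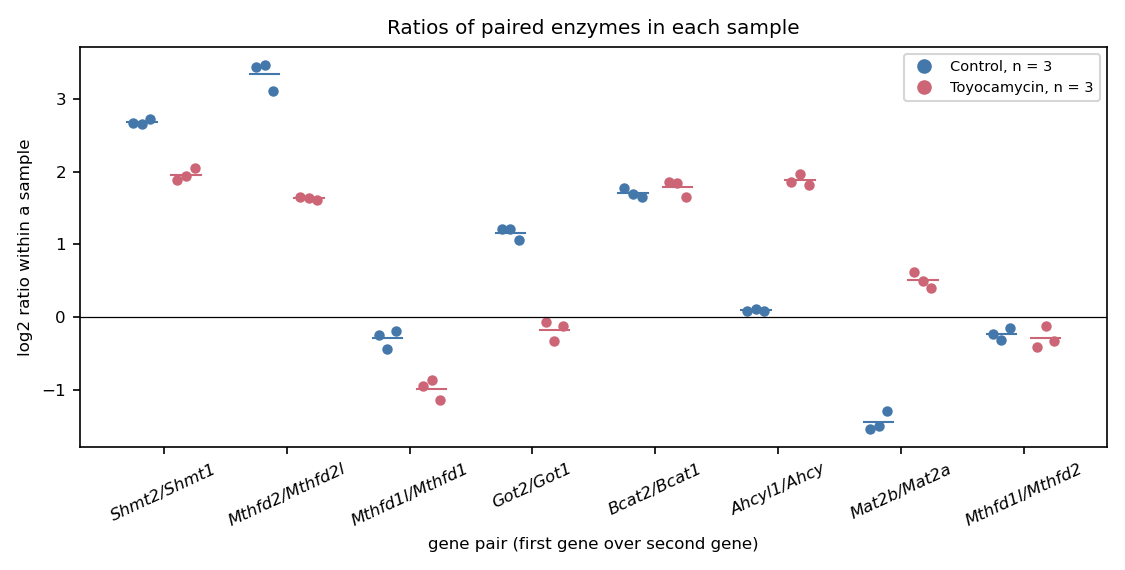
Log2 ratio of normalised read counts (plus 1) of 8 gene pairs within each sample, Control beside Toyocamycin (points are samples, lines are group means, n = 3 per group). The groups stand apart in 6 pairs, with the widest gap for Mat2b/Mat2a, and overlap for Bcat2/Bcat1 and Mthfd1l/Mthfd2.

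ATF4 is known to activate many of these genes. Atf4 mRNA rose, from 3525, 3579 and 4013 in Control to 7292, 7895 and 7493 in Toyocamycin (log2 change 1.03, SE 0.057, adjusted p = 8.662e-13). Of 13 members widely described as ATF4 targets, 12 fell and 1, Asns, rose, with a median log2 change of −1.20 and a range of −2.79 to 0.83. Of the other 19 members, Got1 among them, 10 fell, 7 rose and 2 did not pass, with a median of −0.23. Of all genes tested, 33.1% fell and 32.8% rose, with a median of −0.03. The list of targets was chosen with earlier results of these data known, and a part of ATF4 in these changes was not tested. Counts of mRNA give no measure of ATF4 protein. Myc, another known regulator of serine and folate genes, was at 4743, 4732 and 4888 against 5844, 6176 and 5226 (log2 change 0.26, adjusted p = 0.0005111), a shift no larger than the one that equal totals make in the median of all genes.

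Asns and Got1, which rose, and Pck2 and Pycr1, which fell, have the same short motif near their start sites, and their promoters are shown for that reason. The motif searched was TGATGNAA, the core of the C/EBP-ATF response element that ATF4 binds with C/EBP partners, on both strands of RefSeq windows (build GRCm38.p6) from 250 bases before to 50 bases after a gene's start. It was found in 4 of the 37 windows of members, which belong to 30 genes, and in 3.97% of all 32851 windows. Aldh1l2 and Cth, both counted among the ATF4 targets above, had no window. Capitals mark the match, which reads TGATGNAA on the printed strand in Asns and Pycr1 and on the opposite strand in Got1 and Pck2. The windows, printed 5′ to 3′ along the gene, are chr6:7693160-7693459 (minus strand) for Asns, chr19:43524556-43524855 (minus strand) for Got1, chr14:55540016-55540315 (plus strand) for Pck2 and chr11:120643699-120643998 (minus strand) for Pycr1.
Asns: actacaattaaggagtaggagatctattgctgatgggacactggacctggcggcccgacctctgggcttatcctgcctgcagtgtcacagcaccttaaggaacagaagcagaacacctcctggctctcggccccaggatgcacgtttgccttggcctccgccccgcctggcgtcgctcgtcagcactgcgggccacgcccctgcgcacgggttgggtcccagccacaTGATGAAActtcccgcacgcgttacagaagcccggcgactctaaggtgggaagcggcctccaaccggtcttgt
Got1: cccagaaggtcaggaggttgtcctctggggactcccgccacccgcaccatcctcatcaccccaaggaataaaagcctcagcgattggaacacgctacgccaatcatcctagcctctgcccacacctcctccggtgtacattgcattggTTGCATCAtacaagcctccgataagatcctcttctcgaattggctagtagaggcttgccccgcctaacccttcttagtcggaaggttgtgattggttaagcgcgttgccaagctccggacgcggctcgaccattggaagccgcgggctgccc
Pck2: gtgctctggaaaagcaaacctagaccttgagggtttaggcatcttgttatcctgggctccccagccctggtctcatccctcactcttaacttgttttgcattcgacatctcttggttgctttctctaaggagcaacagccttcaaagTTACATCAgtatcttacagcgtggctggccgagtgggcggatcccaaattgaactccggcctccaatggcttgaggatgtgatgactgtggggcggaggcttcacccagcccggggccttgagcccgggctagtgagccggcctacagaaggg
Pycr1: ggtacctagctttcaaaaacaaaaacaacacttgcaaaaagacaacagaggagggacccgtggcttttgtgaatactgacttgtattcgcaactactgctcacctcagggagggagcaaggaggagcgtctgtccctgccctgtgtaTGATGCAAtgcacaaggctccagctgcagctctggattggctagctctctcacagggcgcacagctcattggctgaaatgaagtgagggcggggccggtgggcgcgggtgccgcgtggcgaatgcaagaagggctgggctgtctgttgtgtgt
The match begins 23 bases before the start in Asns, 102 in Got1, 103 in Pck2 and 103 in Pycr1. The match letters are TGATGAAA in Asns and TGATGCAA in Pycr1, and the printed strand reads TTGCATCA in Got1 and TTACATCA in Pck2. Genes with the motif moved in both directions, by 0.83 and 1.10 for Asns and Got1 and by −2.69 and −2.10 for Pck2 and Pycr1 on the log2 scale. The E-box CACGTG was found in the windows of Aldh18a1 and Cbs (7.15% of all windows) and the cyclic AMP element TGACGTCA in 1 window of Ahcyl1 (1.79% of all windows). These matches are descriptions of the sequence, and a window without one says only that these letters are not in it.

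Other genes of the same pathways were taken from a list of 51, of which 49 were in the table and 43 passed the filter on low values. Of these 43, 17 fell, 11 rose and 15 did not pass, with a median log2 change of −0.27. Of all genes tested 65.9% were called, 33.1% lower and 32.8% higher, so the share of called genes was near that background. The 6 with the largest changes all fell, and 5 of them are named here. Bckdk, the kinase that restrains breakdown of branched-chain amino acids, fell 9.12-fold, from 1411, 1370 and 1410 to 143, 157 and 160 (log2 change −3.18, SE 0.098, adjusted p = 6.137e-17). Tyms, which uses a folate-bound carbon unit to make thymidylate, fell 8.82-fold, from 1485, 1475 and 1390 to 180, 187 and 126. The sideroflexin gene Sfxn3 fell 7.29-fold, the cobalamin gene Mmachc 4.72-fold and the urea cycle gene Asl 4.27-fold. The mitochondrial folate carrier Slc25a32 rose 1.56-fold (516, 520 and 541 against 807, 827 and 820).

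**Figure D4:**
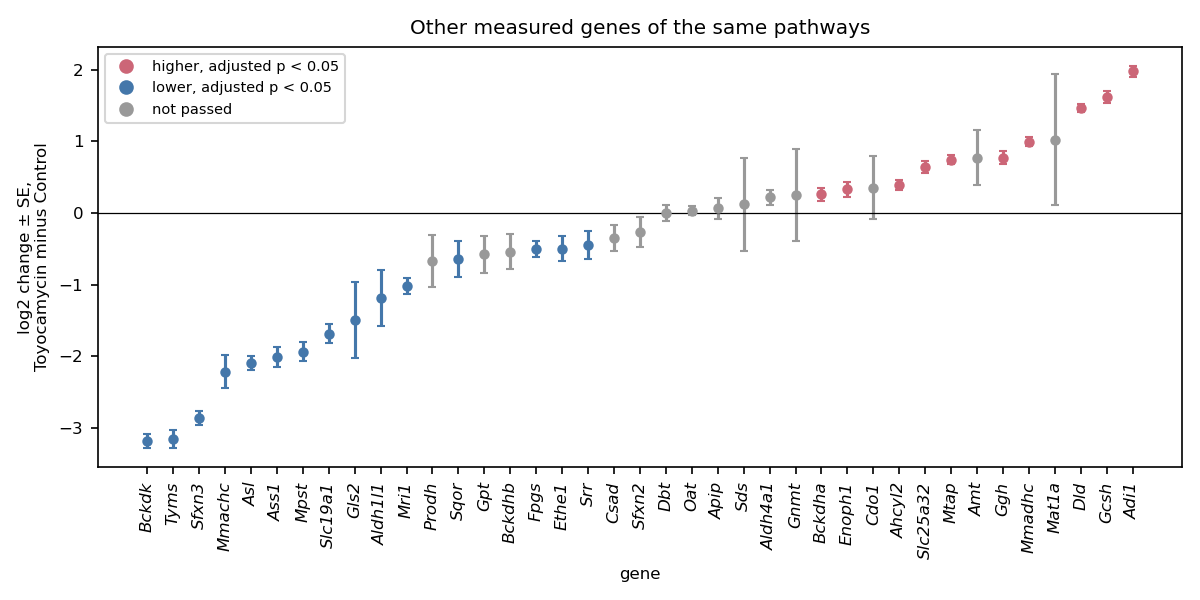
Log2 change (points; bars show the standard error) of 39 of the 43 other measured genes of the same pathways, ordered by size, n = 3 per group. Bckdk, Tyms and Sfxn3 form the low end near −3, and 10 of the plotted genes that passed the test lie above 0.

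Across scalings the strongly changed members kept their direction. The 11 members with falls of at least 1 on the log2 scale and the 3 with rises of that size had the same sign and call in every one of the 17 alternatives. Equal totals gave larger falls, such as −0.81 for Phgdh, −0.88 for Psph, −1.02 for Shmt1 and −0.98 for Gpt2, and Psat1 was at −1.21 with quantile normalization. The members whose sign turned were Ahcyl1 and Glud1 with equal totals and with quantile normalization, Mthfs and Gldc with quantile normalization, and Got2 after the GC and length correction.

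**Figure D5:**
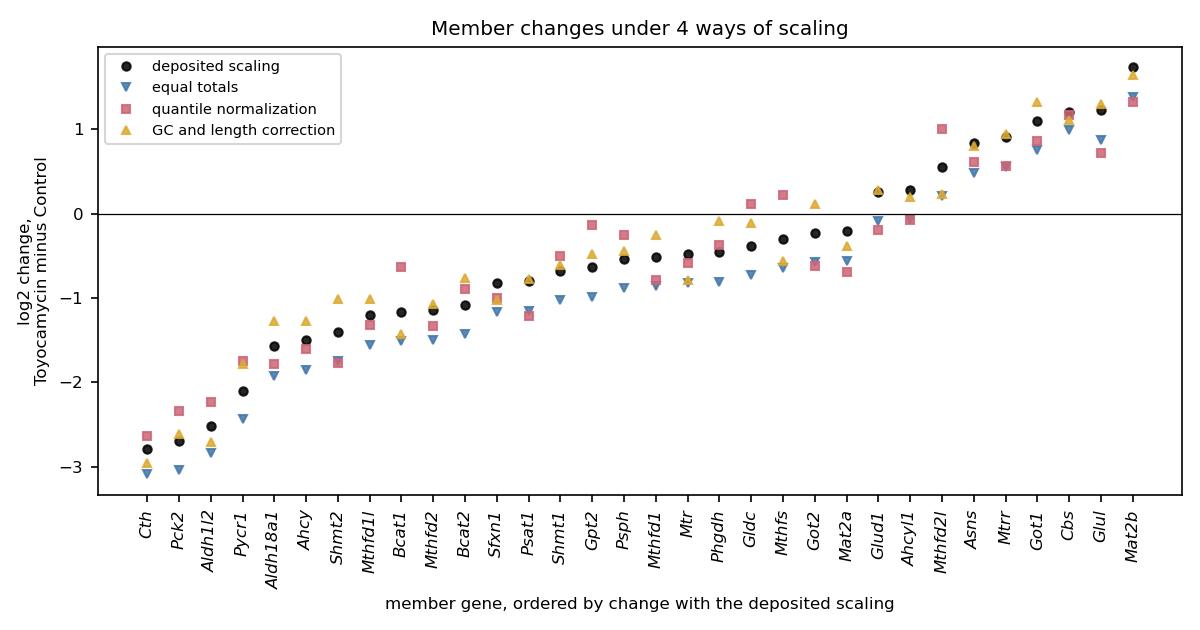
Log2 change of each member, ordered by its value with the deposited scaling (black), beside the value with equal totals, with quantile normalization and after a correction for GC content and transcript length. The members at both ends keep their sign, and those between −0.39 and 0.28 lie close enough to 0 for a scaling to turn some of them.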

How the data were processed

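RNA of 3 Control and 3 Toyocamycin samples was measured, with groups and replicate numbers taken from the sample titles. The authors used cutadapt 4.7, FastQC and build mm10, per the submitters' processing notes (the sources used here name no aligner, counting program, strand setting or annotation). The file name says FPKM, but the deposited signal values are read counts of genes over a size factor that is shared by all genes of a sample: with a tolerance of 0.01 reads, 100% of values in each column were whole reads. The labels do not say whether replicates came from different cultures or mice; p-values therefore reflect only how these samples spread, and that spread may be technical. Within a group, replicates differed beyond sampling noise (chi-square over degrees of freedom 3.87 to 7.39).

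Genes with a mean of at least 1 were analysed as log2(value + 1), which understates changes of low genes, in limma 3.58.1 (R 4.3.3) with a mean-variance trend, with two-sided p-values adjusted over 16223 genes (Benjamini-Hochberg) and a threshold of 0.05. Folds are ratios of group means. On simulated data with these libraries, limma called 96% of 50 genes changed 4-fold and 70% of 50 genes changed 2-fold among 16168 genes. It called 46% of 50 genes changed 1.5-fold. The simulation gave all genes the same dispersion (spread beyond counting noise) and left 15971 genes unchanged, whereas 65.9% of genes were called in the data. Its shares may therefore not hold for these data. Alternatives used edgeR 4.0.16 and DESeq2 1.42.0 on the recovered reads, other pseudocounts, filters and scalings, a replicate block and each sample left out. The GC and length correction (natural splines in each sample, 97.8% of genes with a value) was added after seeing the data. The members, lists, pairs and motifs were chosen with earlier results of these data known. All members are named, with values in every sample for the 12 with the largest changes and those that depend on scaling, and for others where they bear on a pathway; of the other pathway genes, 5 of the 6 with the largest changes and the fixed partner Slc25a32 are named, and of regulators Atf4 and Myc; 4 genes of that list are not reported here. Near-identical copies were found with blastn 2.17.0 (at least 200 bases at 95% identity) and exon overlaps in GENCODE M21. Levels per kilobase use the longest GENCODE transcript. Intervals and floors cover counting error alone, because PCR copies carry no identifiers.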

Additional observations from a re-analysis of the deposited data

How the results depend on the processing

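With the deposited scaling 8 members were higher and 22 lower; with equal totals 5 were higher, and the median log2 change of the members moved from −0.52 to −0.87. With quantile normalization it was −0.60, and with 1 sample left out it ran from −0.59 to −0.49. Over all genes, equal totals gave 4039 higher and 6895 lower in place of 5316 and 5374, so that 36.9% of calls were higher in place of 49.7%. Of 541 member values in the alternatives, 522 kept direction and call, 11 lost the call and 1 gained it (Mthfs with equal totals, −0.64). The sign turned in 7, namely Mthfs (0.22) and Gldc (0.12) with quantile normalization, Ahcyl1 with equal totals (−0.070) and with quantile normalization (−0.074), Glud1 with equal totals (−0.093) and with quantile normalization (−0.20), and Got2 after GC and length correction (0.11); the cause was not tested. Among the pair ratios, Mthfd1l to Mthfd2 (−0.06) turned without Toyocamycin replicate 1 (0.0029), and with 1 sample left out it ran from −0.14 to 0.0029. Quantile normalization, also added for the ratios after seeing the data, gave Shmt2 to Shmt1 −1.27, Mthfd2 to Mthfd2l −2.33, Mthfd1l to Mthfd1 −0.53, Got2 to Got1 −1.48, Bcat2 to Bcat1 −0.26, Ahcyl1 to Ahcy 1.53 and Mthfd1l to Mthfd2 0.0094. The GC and length correction gave Shmt2 to Shmt1 −0.40, Mthfd2 to Mthfd2l −1.30, Bcat2 to Bcat1 0.66, Ahcyl1 to Ahcy 1.48 and Mthfd1l to Mthfd2 0.053. The cause of these shifts was not tested. Whether samples of the same replicate number share a culture or mouse is not stated, and 3 samples per group cannot settle it. Deviations of same-numbered samples correlated at −0.01, 0.02 and −0.04, and those of other-numbered samples at −0.09 to 0.08. With the replicate block the members stayed at 8 higher and 22 lower, with 5272 genes higher and 5298 lower in all. Depth limits Cbs, Cth and Aldh1l2, which had 2 to 7 reads in each Toyocamycin sample.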

Other observations

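The following genes of the same pathways were named after their values were seen. Glycine cleavage needs Gldc, whose call was marginal, and 3 partner proteins. These partners were not lower, where 33.1% of all genes tested fell and 32.8% rose. Gcsh, the protein that carries the glycine remnant, rose 3.08-fold, from 550 ± 12.3 (SD, n = 3) to 1694 ± 172, and Dld, a subunit shared with other mitochondrial dehydrogenases, rose 2.77-fold, from 1974 ± 110 to 5460 ± 298 (limma, log2 changes 1.62 and 1.47). The aminomethyltransferase Amt was at 22.7 ± 7.68 and 38.0 ± 2.15 and did not pass (limma adjusted p = 0.08616).

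Enzymes of methionine salvage, which recover methionine from a by-product of polyamine synthesis, moved both ways. So did all genes tested, of which 32.8% rose and 33.1% fell. Adi1, the dioxygenase near the end of that route, rose 3.95-fold, from 581 ± 29.4 to 2292 ± 143, Mtap, which opens it, rose 1.68-fold, and the salvage enzyme Enoph1 rose 1.26-fold, from 469 ± 45.0 to 590 ± 64.4 (limma adjusted p = 0.009477). Mri1, the isomerase of the same route, fell 2.02-fold, from 721 ± 51.7 to 356 ± 52.0, and Apip did not pass (limma adjusted p = 0.7215). The folate importer Slc19a1 fell 3.23-fold, from 482 ± 29.2 to 149 ± 8.39.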
